A study of Homo sapiens with 21 samples.

Results

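The H3K4me3 landscape described here is the set of genome regions in which both ChIP-seq libraries for trimethylated lysine 4 of histone H3 held a called peak in 786-O cells. Peaks of both lists that shared at least 1 bp were merged into 19107 regions, and the 16218 regions with a peak of each library were kept. Another 1585 regions held peaks of replicate 1 only and 1304 held peaks of replicate 2 only. The 786-O line is a human cell line, long in use, that was derived from a clear cell renal carcinoma and lacks functional VHL. The ChIP cells carry the genotype label JMJD6 WT, with no guide RNA named, and both H3K4me3 libraries belong to sequencing batch 2. The 2 matching input samples were not analysed here. The antibody was Abcam ab8580, used on chromatin that had been fixed with formaldehyde and sonicated. A protocol for siRNA transfection is attached to every sample of the series, and nothing in the labels says that the ChIP cells were transfected. The series holds 21 samples, of which 5 were used: these 2 libraries and 3 RNA-seq libraries of 786-O cells labelled JMJD6 WT with the guide sgCtrl. The labels do not say whether the 2 ChIP libraries came from separate cultures, so their agreement may be that of technical replicates. There is 1 cell line and 1 condition, so no contrast between conditions was tested, and values of both libraries are given side by side.

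H3K4me3 is a mark of nucleosomes next to active or poised transcription start sites. It is written by the SETD1 and KMT2 methyltransferases in complexes with WDR5, RBBP5, ASH2L and DPY30, and the demethylases of the KDM5 family remove it. The protein CXXC1 brings the SETD1 enzymes to unmethylated CpG-rich DNA, and readers with PHD fingers, such as the TFIID subunit TAF3, bind the mark. At most active promoters it forms a domain on both sides of a short stretch with few nucleosomes, and at some genes of cell identity the domain is unusually broad. An annotation of the build of the peaks was not used here, so regions are named by position on hg19 and their overlap with gene starts was not counted.

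The RNA of the same line matched the labelled origin. All 8 markers of renal tubule epithelium had at least 1 TPM, a transcript's length-corrected share of all transcripts scaled to a fixed sum, in each of the 3 control libraries, with a summed level from 1263 to 1306 TPM. Most of this sum came from KRT8 (605, 630 and 632 TPM) and KRT18 (234, 231 and 215 TPM). PAX8, a transcription factor of the kidney lineage, was at 178, 164 and 173 TPM. None of 4 leukocyte and 3 endothelial markers reached 1 TPM in each library. PTPRC, CD3E, CDH5 and VWF were listed at 0 in all 3. Of 5 fibroblast markers only LUM had at least 1 TPM in each library, and their summed level ran from 9.03 to 36.6 TPM. The highest sum was in control library 1, where each of the 5 was above 1 TPM. There COL1A2 was at 7.49, COL3A1 at 2.18 and DCN at 5.31 TPM, against at most 0.529, 0.118 and 0.243 in the other control libraries.

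The libraries held 18745 and 18601 peaks. In replicate 1, 17160 peaks lay in a region of both libraries, which is 91.5% (95% exact Clopper-Pearson interval 91.1 to 91.9, counting error only), and in replicate 2 it was 17297 peaks, or 93.0% (92.6 to 93.4). The peaks of replicate 1 covered 29.6 Mb and those of replicate 2 covered 29.2 Mb, of which 27.3 Mb were common. The common part was 92.1% of the bases of replicate 1, 93.4% of those of replicate 2 and 86.5% of the union. Regions of both libraries covered 30.7 Mb, and on chromosomes 1 to 22 and X they took up 1.01% of the sequence. Of the 16218 regions, 16166 lay on these chromosomes and 52 on chromosome Y or on sequences with no place in a chromosome. Most regions had a single outline in both libraries, since 14444 regions (89.1%) held exactly 1 peak of each library. Another 765 were split into several peaks in replicate 1 only, 868 in replicate 2 only and 141 in both.

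Regions fell into a low and a high group by fold enrichment, which is the caller's ratio of signal at the summit to its background. A count over the mean fold of both libraries had a narrow peak between 5 and 10, with 2180 regions, then sank to 416 regions between 30 and 35 and reached a second, wide maximum of 819 regions between 75 and 80. The lower side of the narrow peak depends on what was called and kept. The lowest fold of a called peak was 2.73 in replicate 1 and 2.77 in replicate 2. Regions of 1 library, with median folds of 5.07 and 4.98, are not in this count. The median was 55.0 in replicate 1 and 58.8 in replicate 2, and 10195 regions (62.9%) had a mean fold of at least 40, called strong below. The 4183 regions (25.8%) with a mean fold under 20 are called weak below. Both limits were set after this distribution was seen.

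**Figure D1:**
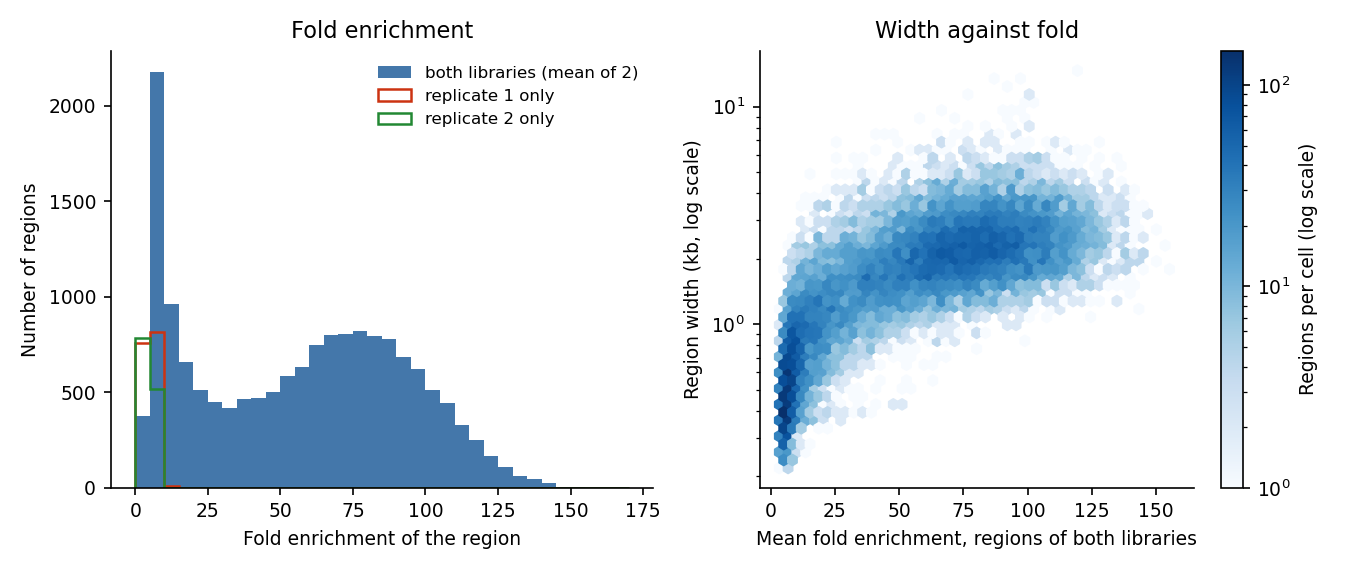
Left, number of regions by fold enrichment (bins of 5), with filled bars for regions of both libraries and outlines for regions of 1 library. Right, width of regions of both libraries in kb (log scale) against mean fold, coloured by the number of regions. The 2180 regions between 5 and 10 form the narrow peak at the left, and the regions of 1 library sit at the same low folds.

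Width went with fold. The median width was 516 bp for regions with a mean fold under 10, with 80% of them between 322 and 936 bp. It was 893 bp at folds from 10 to 20, 1379 bp from 20 to 40 and 2064 bp from 40 to 80. At folds of 80 and above it was 2442 bp, and 80% of those regions were between 1664 and 3797 bp. Over all 16218 regions the median width was 1810 bp, with the middle 90% between 405 and 3791 bp. Spearman's rho between width and mean fold was 0.740 across regions, which share libraries and are not independent. Width and fold are also values of the same called peaks, so they are not separate measurements of the mark. Above 3000 bp the fold went little with width: the median fold of the 626 regions over 4000 bp was 80.2 in replicate 1 and 88.6 in replicate 2, close to the 80.9 and 87.8 of the 1589 regions from 3000 to 4000 bp. At the narrow end the lists had a floor, since the lowest width was exactly 201 bp in 558 peaks of replicate 1 and exactly 218 bp in 543 peaks of replicate 2.

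The 10 regions with the highest mean fold were of ordinary width, from 1802 to 3383 bp, and each was 1 peak in both libraries. The highest lay on chromosome 7 from 32996520 to 32998321 (7p), with a fold of 165 in replicate 1 and 149 in replicate 2. It ranked first in replicate 1 and 78 in replicate 2. Next came chromosome 19 from 18630725 to 18633098 (19p), at 143 and 162, and chromosome 7 from 140177203 to 140179891 (7q), at 146 and 157. Chromosome 10 from 99496611 to 99498524 (10q) was at 143 and 158, and chromosome 9 from 95525244 to 95528592 (9q) at 144 and 150. Their order was not stable between libraries: the region on chromosome 7 from 1013591 to 1015666 (7p) was at 172 in replicate 2, the second highest there, and at 120 in replicate 1, where it ranked 433. The remaining 4 lay on chromosome 5 from 179247240 to 179250445, on chromosome 16 from 69362705 to 69365213 and from 4742788 to 4744959, and on chromosome 10 from 23000749 to 23004131. In 9 of the 10 the summits of both libraries were within 76 bp of each other. A region in the middle of the list, on chromosome 3 from 38537698 to 38538940 (3p), had a fold of 60.4 and 57.9 and a width of 1243 bp, and another, on chromosome 3 from 142837824 to 142840322 (3q), was at 61.0 and 57.3 and 2499 bp wide. The third one nearest the median, on chromosome 17 from 73780215 to 73782260 (17q), was at 47.8 and 70.5 and 2046 bp wide.

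The 10 widest regions ran from 9578 to 14640 bp. The widest lay on chromosome 7 from 27200230 to 27214869 (7p) and was 1 peak in replicate 1 and 2 peaks in replicate 2, with a fold of 116 and 122. The second, on chromosome 16 from 87889249 to 87903160 (16q), was 13912 bp long and was put together from 6 peaks of replicate 1 and 3 of replicate 2, with its summits 9 bp apart near the right end. The third, on chromosome 13 from 110425644 to 110439008 (13q), was a single peak of 13365 bp in each library at a fold of 84.0 and 88.4. Chromosome 22 from 46467137 to 46479094, chromosome 9 from 114657707 to 114669583 and chromosome 2 from 191744221 to 191755423 followed, with widths of 11958, 11877 and 11203 bp. The last 4 were chromosome 5 from 142774741 to 142785801, chromosome 8 from 134300237 to 134310673, chromosome 3 from 101567456 to 101577785 and chromosome 11 from 65265195 to 65274772. None of the 10 was among the 10 with the highest fold: their mean folds ran from 66.4 to 119. Single outlines of both libraries made up 4 of the 10, and the others were split in at least 1 library. Of all regions over 4000 bp, 40.9% were split in a library, against 8.55% of those from 1500 to 2000 bp.

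Among regions of both libraries, agreement of fold was close over the whole range, and the correlation was low within a narrow part of it. Regions of 1 library have no fold in the other and do not enter these values. Pearson's r of the log2 fold was 0.952 and Spearman's rho 0.897 over the 16218 regions, given as a description, since all regions share the same libraries. For the width of the strongest peak r was 0.954, and for the log2 of the −log10 q-value it was 0.974. The median size of the log2 ratio of the folds was 0.27, and 590 regions (3.64%) differed by more than 2 times. Cutting the range by the mean of the same 2 folds lowers a correlation by construction, so r within a band does not measure agreement. Among strong regions r was 0.610, and within the bands of fold it lay between 0.0590 for 80 and above and 0.287 for 20 to 40. The ratio of the folds ran the other way. Its median log2 size was 0.230 at 80 and above and 0.351 under 10. Differences of more than 2 times were found in 2.28% and 5.75% of regions of these bands. Replicate 2 had the higher fold in 64.0% of regions at 80 and above, in 57.4% from 40 to 80, and in 45.6% to 48.5% of regions in the bands under 40. Of the 381 regions more than 2 times higher in replicate 2, 244 were strong and 100 were weak, near the shares over all regions of both libraries (62.9% and 25.8%). Among the 209 more than 2 times higher in replicate 1, 55 were strong and 127 were weak.

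**Figure D2:**
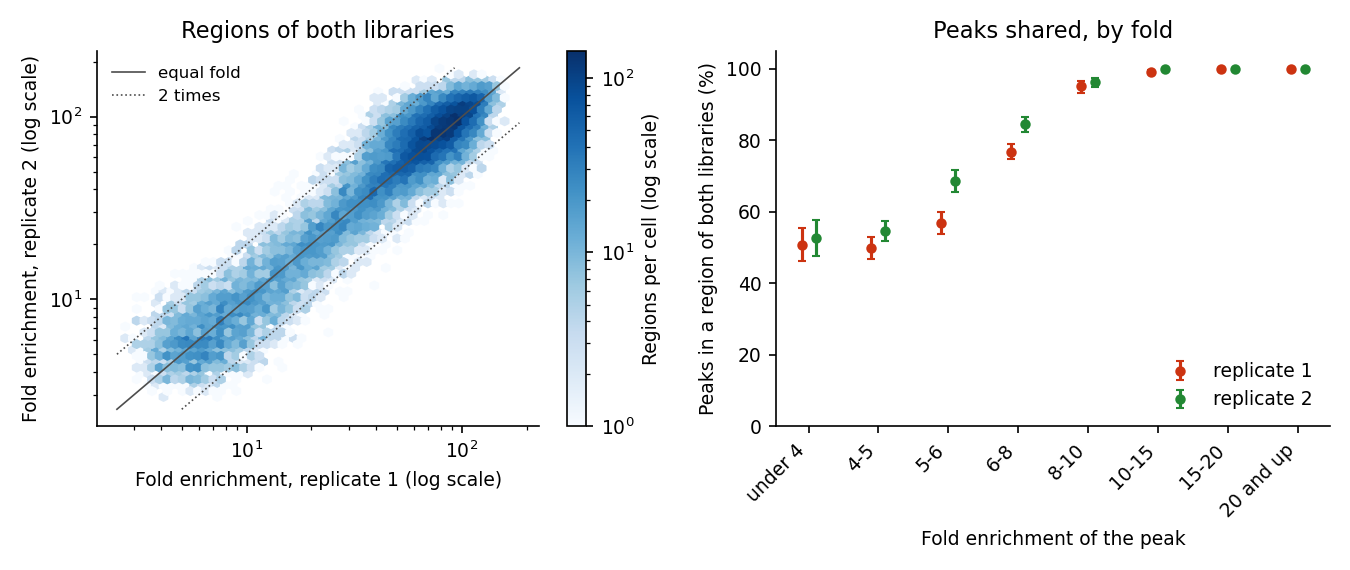
Left, fold in replicate 1 against fold in replicate 2 for the 16218 regions of both libraries (both log scales), coloured by the number of regions, with lines for equal folds and for a 2 times difference. Right, percent of each library's peaks that lay in a region of both libraries, by fold of the peak, with 95% exact Clopper-Pearson intervals. The points reach 100% from a fold of 15 on.

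The largest ratios were found among both strong and weak regions. On chromosome 2 from 128642053 to 128645152 (2q) the fold was 28.4 in replicate 1 and 95.2 in replicate 2, with summits 15 bp apart. The weak region on chromosome 17 from 8060138 to 8060690 (17p) had a fold of 24.8 in replicate 1 and 6.70 in replicate 2, with summits 13 bp apart. The weak region on chromosome 4 from 143326231 to 143326699 (4q) had 3.08 and 9.96, and the weak region on chromosome 3 from 107317911 to 107318765 (3q) had 12.6 and 3.69. These 4 were picked for their ratio after values were seen. Part of the folds came in steps, and the share on steps was counted over all peaks, not by level of fold. In replicate 1, 21.4% of peaks had a fold that was a whole multiple of 0.609 (within 0.001), and in replicate 2, 33.9% had a multiple of 0.622. One such step is 12.2% and 12.4% of a fold of 5, and 1.32% and 1.27% of the median fold of all peaks in the library.

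Outlines and summits differed little between libraries. In the 14444 regions with 1 peak of each library, the starts differed by a median of 66 bp and the ends also by 66 bp, and 90% of starts were within 215 bp. The signed differences had medians of 3 bp and −2 bp. Summits were a median of 34 bp apart, and their signed distance had a median of 0 bp. In 62.4% of regions they were within 50 bp, in 80.1% within 100 bp and in 97.1% within 500 bp. The distance was smaller in stronger regions: its median was 70 bp at folds under 10, 40 bp from 20 to 40 and 24 bp at 80 and above.

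Along its peak the summit sat near the middle on average and away from it in many single regions. Its place, as a fraction of peak width, had a median of 0.495 in replicate 1 and 0.496 in replicate 2, and the middle 80% of peaks in replicate 1 lay between 0.282 and 0.708. In wide regions both libraries mostly had the summit on the same side. In regions of 2000 to 3000 bp, 90.9% had both summits on the same side of the middle of the region, and r of the place along the region was 0.873. In the 1432 regions up to 500 bp these were 50.6% and −0.0657. The median summit distance was 43 bp up to 500 bp and 28 bp from 2000 to 3000 bp. Such a shift is a larger part of a narrow region, so these widths are not compared on equal terms. Over 4000 bp the summits lay more often near an end of the region, with 23.3% in its first or last 0.25 in each library, against 7.85% and 7.78% from 2000 to 3000 bp. Regions split into several peaks made up 40.9% and 11.8% of these widths, and the place along the single peak was not counted by width. Only 93 regions had summits more than 1000 bp apart. The largest distance was 5235 bp, on chromosome 17 from 36902707 to 36910178 (17q), which held 2 peaks of each library, and the highest of them was the left one in replicate 1 at 58.1 and the right one in replicate 2 at 118. The region on chromosome 11 from 65623765 to 65629645 (11q) had summits 3378 bp apart within a single outline, at 118 and 98.1.

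Gaps between neighbouring regions fell into short and long ones. Their median was 54.4 kb, and the most frequent gaps were from 56234 to 100000 bp in bins of equal width on a logarithmic scale, with 2358 of 16181. A second, smaller group lay between 56.2 and 562 bp, with 409 gaps between 100 and 178 bp. Between 562 and 1000 bp there were 144. Of all regions, 2607 (16.1%) had a neighbour within 1 kb, and 33.4% had one within 10 kb. Such near neighbours were more frequent among regions of low fold, at 33.9% under 10 and 9.04% at 80 and above. Of 1375 neighbouring pairs at most 1 kb apart, 599 (43.6%) joined a strong and a weak region and 159 (11.6%) joined 2 strong ones. Among the 14806 pairs farther apart it was 28.5% and 43.8%. Most weak regions were not next to a strong one: of 4172 on a chromosome or sequence with a strong region, 14.5% were within 1 kb of a strong one and 28.1% within 10 kb and 71.6% within 100 kb, and the median distance was 37229.5 bp.

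**Figure D3:**
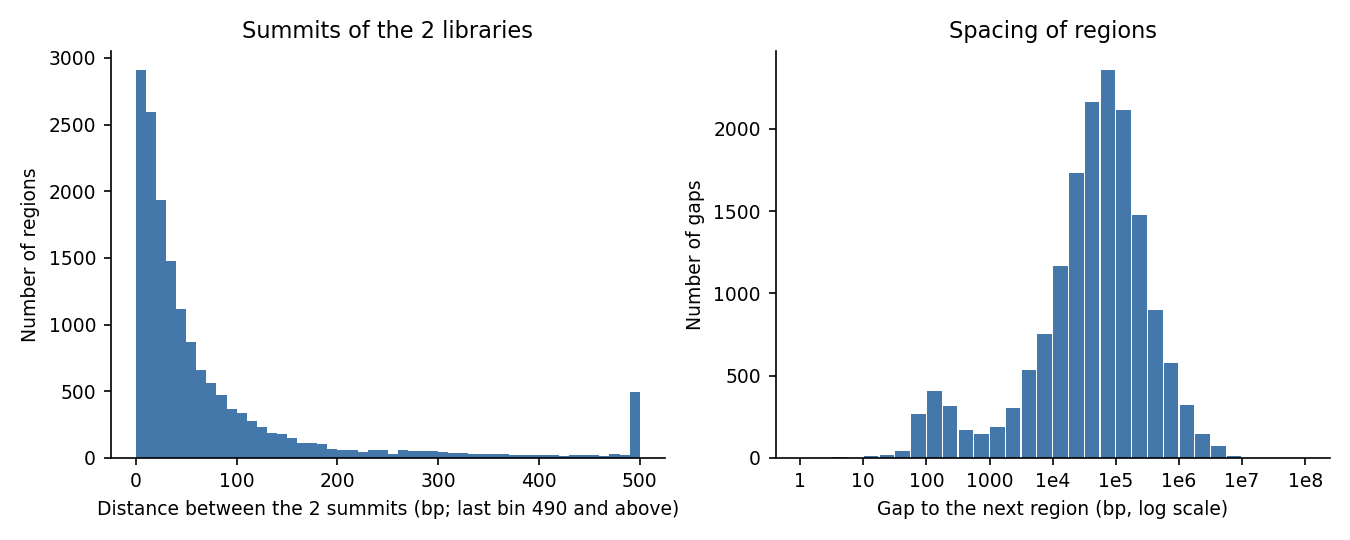
Left, number of regions by distance between the summits of both libraries in bp (bins of 10, the last one open to larger distances). Right, number of gaps between neighbouring regions of both libraries by gap length (log scale). Most summits are under 50 bp apart, and the gaps show a large group with its top between 56234 and 100000 bp and a small one with its top between 100 and 178 bp.

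Chromosome 19 was the densest, with 1149 regions, or 19.4 per Mb (95% exact Poisson interval 18.3 to 20.6, counting error only). It is the most gene-rich human chromosome for its length and holds most of the KRAB zinc finger genes. Chromosome 17 followed with 965 regions (11.9 per Mb, 11.1 to 12.7) and chromosome 22 with 409 (7.97 per Mb, 7.22 to 8.78), whose interval overlapped that of chromosome 16 (7.70 per Mb, 7.14 to 8.30). Chromosome 13 was the sparsest over its whole length, with 306 regions (2.66 per Mb, 2.37 to 2.97). Chromosomes 18 (3.23 per Mb), 4 (3.25), X (3.34) and 21 (3.35) came next, and their intervals, all between 2.84 and 3.90, overlapped. Those of 18 and 21 also overlapped the interval of chromosome 13. All these intervals take regions as placed independently, while regions cluster, so their overlap is only a rough guide. These densities use whole chromosome lengths, which on 13, 14, 15, 21 and 22 include a short arm with at most 1 region. On the long arms alone, 13q had 3.18 per Mb (2.84 to 3.56) and 21q had 4.73 (4.02 to 5.52). The mean over chromosomes 1 to 22 and X was 5.32 per Mb, and the densest and sparsest differed 7.31-fold. Both libraries gave the same picture by themselves, with 21.6 and 21.7 peaks per Mb on chromosome 19 and 3.14 and 3.19 on chromosome 13. Regions also stood closer there, with a median gap of 22.9 kb on chromosome 19, 30.3 kb on chromosome 17 and 117 kb on chromosome 18. They were narrower on chromosome 19: strong regions had a median of 1987 bp, the lowest of the 23 chromosomes, against 2480 bp on chromosome 4.

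**Figure D4:**
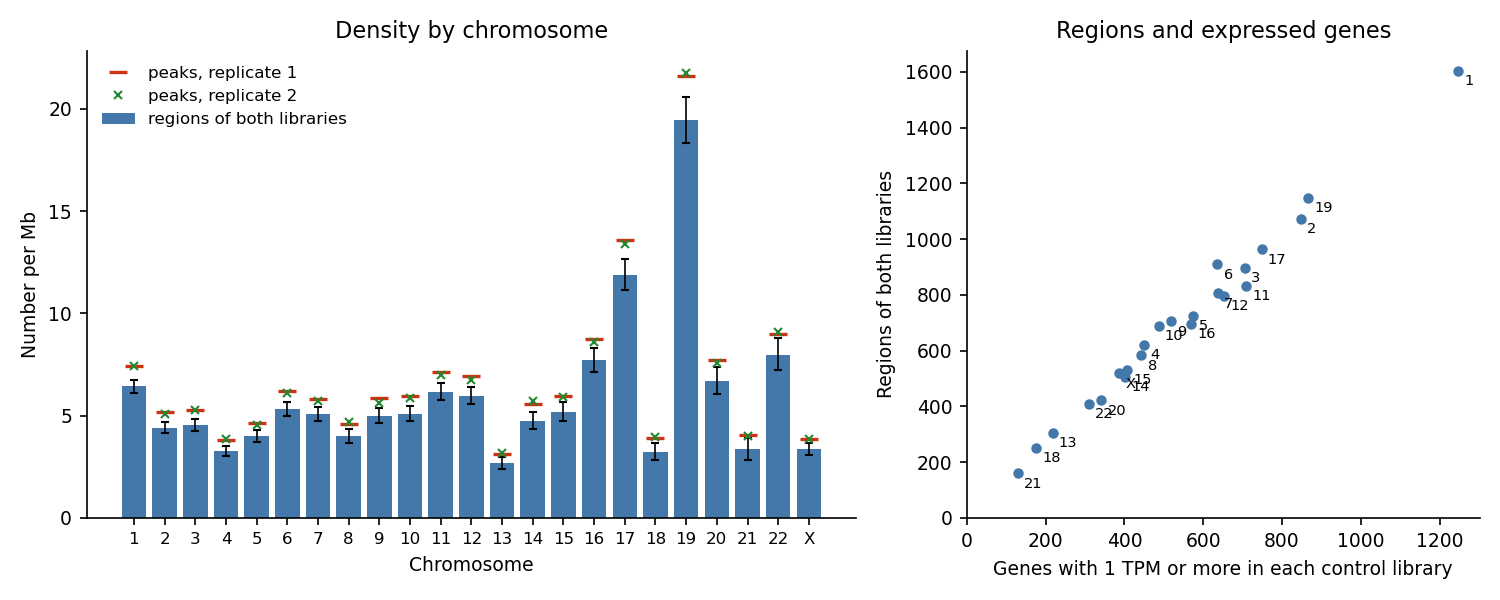
Left, regions of both libraries per Mb for chromosomes 1 to 22 and X (bars, with 95% exact Poisson intervals) and peaks per Mb of each library (marks). Right, number of regions of both libraries against the number of genes with at least 1 TPM in each of 3 control RNA libraries, 1 point per chromosome. Density runs from 2.66 on chromosome 13 to 19.4 on chromosome 19, while the points at the right lie near a line.

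Counted per expressed gene, the chromosomes were nearly alike. The 12457 genes with at least 1 TPM in each control library gave 1.30 regions per expressed gene over the 23 chromosomes. The ratio was lowest on chromosome 11, at 1.17, and on chromosomes 16 and 12, both at 1.22, and highest on chromosomes 18, at 1.44, 6, at 1.43, and 10, at 1.42. This is a 1.23-fold range, where the range per Mb was 7.31-fold. Per measured gene, expressed or not, it was 1.51-fold, so most of the fall from the range per Mb came with counting per gene. Across the 23 chromosomes, r between the number of regions and the number of expressed genes was 0.994 (rho 0.986). With all 26685 genes measured it was 0.982 (rho 0.970), and with length 0.606 (rho 0.529). These are descriptions over chromosomes, which differ in size, and large chromosomes have more of everything. Chromosome 19 had 1.33 regions per expressed gene and chromosome 13 had 1.40. Chromosomes 13, 21 and X had the fewest regions per measured gene, expressed or not, at 0.507, 0.447 and 0.472 against 0.606 over all 23, with 36.2%, 36.1% and 35.1% of their genes expressed. The RefSeq table that gave gene names and their chromosomes is of assembly GRCh38.p14, and no position was taken from it.

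By arm, 19p was the densest, with 571 regions (23.1 per Mb, 21.3 to 25.1), followed by 19q (18.4, 16.9 to 19.9) and 17q (12.7, 11.8 to 13.7). Among arms with at least 20 regions 5p was the sparsest, with 134 regions (2.89 per Mb, 2.42 to 3.42), then 18q (2.97, 2.55 to 3.44) and Xq (3.13, 2.78 to 3.51). These intervals overlapped. The short arms of chromosomes 13, 14, 15 and 22 held 0 regions and that of 21 held 1. Arms of one chromosome could differ a great deal. The short arm of chromosome 6, which carries the largest cluster of histone genes and the major histocompatibility complex, had 536 regions (9.11 per Mb, 8.36 to 9.92) and the long arm 374 (3.42, 3.08 to 3.79). On chromosome 16 it was 10.6 per Mb (9.51 to 11.7) on 16p and 6.21 (5.55 to 6.92) on 16q. Arm lengths include stretches without a region beside the centromere. Per Mb between the first and last region of the arm, 16p had 10.7 and 16q 7.43. On chromosome 20 it was 5.54 per Mb of arm (4.68 to 6.51) on 20p and 8.20 (7.26 to 9.23) on 20q. The short arm was the denser one on 9 of the 18 chromosomes with at least 20 regions on each arm. On 3p, the arm that carries VHL and is often lost in clear cell renal carcinoma, there were 400 regions (4.42 per Mb, 4.00 to 4.87), with intervals overlapping those of 3q (4.76, 4.36 to 5.20).

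Chromosome ends were denser than the rest of the arms. The outermost 5 Mb of the 41 arms with at least 20 regions held 10.5 regions per Mb pooled, and the remainder of these arms 5.21. The end was the denser part on 30 of the 41 arms and not on the other 11. On 16p the end had 31.0 regions per Mb and the remainder 7.19, on 8q it was 18.4 and 2.98, and on 4p 12.8 and 2.73. On 11q it went the other way, with 2.40 and 7.21 per Mb.

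Regions were unevenly spread at the scale of 1 Mb. Of 3053 windows of 1 Mb, 694 held no region of both libraries, and the median window held 3. The 132 windows (4.32%) with at least 20 regions held 3614 regions, or 22.4% of those on chromosomes 1 to 22 and X. The most crowded window was chromosome 19 from 1000001 to 2000000, with 56 regions that covered 9.50% of it. Chromosome 11 from 65000001 to 66000000 and chromosome 16 from 30000001 to 31000000 held 47 each, and chromosome 17 from 7000001 to 8000000 held 46. The fifth, chromosome 6 from 26000001 to 27000000, held 45 regions. It differed from the other 4 in level: its median fold was 30.4 in replicate 1 and 29.9 in replicate 2, against 48.4 to 62.8 in replicate 1 and 48.9 to 66.4 in replicate 2 in the others, and 19 of its 45 regions were strong.

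The longest gaps between neighbouring regions of both libraries spanned centromeres. Stretches before the first region of a chromosome, such as the short arms without a region, are not counted among them. The 3 longest gaps measured 22.5 Mb on chromosome 1 from 121261788 to 143742910, 19.6 Mb on chromosome 9 from 46844344 to 66455719 and 11.7 Mb on chromosome 16 from 34977047 to 46654054. In these 3 neither library had a peak. The next longest gaps between regions did not hold a centromere: 9.64 Mb on chromosome 5 from 21460849 to 31099881, where replicate 1 had 2 regions of its own and replicate 2 had 0, and 9.16 Mb on chromosome X from 86774312 to 95939272, with 2 and 1. The next after these, on chromosome 4 from 58030619 to 66535795, was 8.51 Mb long and falls outside the naming rule. Gaps of the assembly at centromeres hold no sequence to which reads could align.

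The level of strong regions differed between chromosomes in both libraries alike. It was lowest on X, where the 279 strong regions had a median fold of 56.6 in replicate 1 (middle 50% from 47.1 to 67.6) and 58.5 in replicate 2 (48.7 to 71.3). The 9898 strong autosomal regions had 75.4 (58.8 to 93.3) and 81.2 (63.0 to 101). The distributions overlapped, and the autosomal median lay above the upper quartile of X in each library. On X 53.8% of regions were strong, against 63.3% on the autosomes. Chromosome 14 was second lowest in both, at 64.5 and 66.0. Chromosome 16 was at 83.6 and 92.0, the highest in replicate 2, and chromosome 21 at 88.3 and 88.1, the highest in replicate 1. Over the 23 chromosomes r between the medians of both libraries was 0.941 (rho 0.921). The number of copies of each chromosome in these cells was not measured here, and its part in these levels was not tested.

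Over the 41 arms the medians of both libraries had an r of 0.900 (rho 0.914). Xp (55.4 and 59.8), Xq (57.2 and 58.2), 8p (64.2 and 66.9), 14q, 6p (65.7 and 68.0), 4q and 19q were the 7 lowest in each library. Arms of chromosome 8 stood apart, since 8q had 80.2 in replicate 1 and 94.9 in replicate 2. Chromosome 5 had 83.9 and 100.5 on 5p against 70.4 and 77.2 on 5q, and chromosome 19 had 78.7 and 85.0 on 19p against 66.3 and 71.9 on 19q. Some arms also moved between libraries. The median of 20q was 79.5 in replicate 1 and 101 in replicate 2, while 20p had 83.4 and 81.7. Of the strong regions of 20q, 72.6% had the higher fold in replicate 2, of 5p 72.4% and of 8q 66.2%, against 60.7% of all autosomal ones, 51.0% on 14q and 41.1% on 20p.

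**Figure D5:**
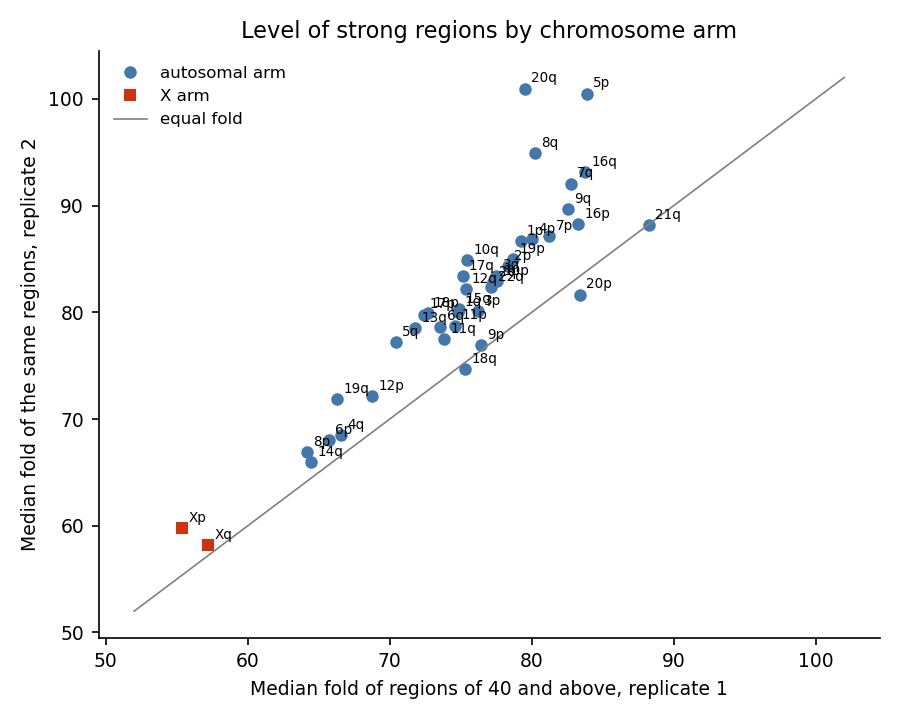
Median fold of strong regions (mean fold of at least 40) in replicate 1 against replicate 2, 1 point for each of 41 chromosome arms, with squares for the arms of X and a line for equal folds. The arms of X are lowest in both libraries, and 20q, 5p and 8q lie farthest above the line.

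Regions of 1 library were narrow and low. In replicate 1 they had a median width of 258 bp and a median fold of 5.07, with 90% of the folds at or under 6.83, and in replicate 2 the values were 264.5 bp, 4.98 and 6.60. Whether a peak had a partner depended on its fold. Of peaks with a fold under 4, 50.7% in replicate 1 (95% exact Clopper-Pearson interval 46.1 to 55.4) and 52.7% in replicate 2 (47.6 to 57.8) lay in a region of both libraries. From 8 to 10 it was 95.1% (93.2 to 96.6) and 96.2% (94.7 to 97.4). All 12192 peaks of replicate 1 and all 12123 of replicate 2 with a fold of 20 or more did so. Just inside the overlap rule, 71 regions of both libraries had at most 100 bp in common, and they had a median fold of 4.87 and 4.79. Just outside it, 180 regions of replicate 1 only and 140 of replicate 2 only lay at most 100 bp from a peak of the other library, with a median fold of 4.87 and 4.74.

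Many regions of 1 library lay beside a region of both: 50.8% of 1584 of replicate 1 and 43.2% of 1304 of replicate 2 were at most 1 kb from one, against 33.9% of regions of both libraries with a mean fold under 10, the band nearest to them in fold, and 16.1% of all regions of both libraries. The highest regions of replicate 1 only were on chromosome 9 from 89952021 to 89952472, at a fold of 14.8, on chromosome 22 from 43058123 to 43058460, at 14.6, and on chromosome 4 from 134067622 to 134068000, at 13.5. In replicate 2 only they were on chromosome 1 from 27883473 to 27883864, at 10.3, and on chromosome 17 from 18128347 to 18128690 and chromosome 9 from 34380782 to 34381234, both at 9.96. By chromosome, replicate 1 had 157 of its 1585 regions on chromosome 1, and replicate 2 had 125 of its 1304. Chromosome 1 also held the most regions of both libraries, 1604 of 16218. On chromosome 14, with 507 of the 16218, replicate 2 had 76 regions of its own against 48 in replicate 1. The lists hold no signal outside peaks, so a region missing from one list is not shown to lack the mark in that library. The read depth of these libraries is unknown.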

How the data were processed

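H3K4me3 ChIP-seq of 2 libraries was analysed from the deposited peak lists, 1 for each library, which follow the narrowPeak format. Besides positions, the deposited lists give a score, the fold enrichment (a ratio over the caller's background), the −log10 p-value, the −log10 q-value and the summit offset. The submitters' processing notes name MACS2 2.1.2, bedtools 2.26 and the builds hg19 and GRCh37 without giving their roles. The aligner, removal of duplicates and the use of inputs as controls are not given in the sources used here. Gene levels came from the TPM column that Salmon wrote, per the file headers, summed over transcripts of a gene; 58025 of 60422 transcripts (96.0%) matched the RefSeq table.

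A region took the highest-fold peak of each library, and the mean of both folds ranked it. Coordinates are counted from 1. Lengths and centromere gaps of hg19 were entered by hand from general knowledge of that build. No peak overlapped a centromere gap on any of the 23 chromosomes and all peaks lay inside the lengths. Intervals are exact and cover counting error only. Those of densities take regions as placed independently, which neighbouring regions are not. Regions were named by rules: the 10 highest mean folds, the 10 widest, 3 nearest the median fold, the 3 highest folds in 1 library only, the 5 fullest windows of 1 Mb and the 5 longest gaps between regions. The members, rules and lists were chosen with earlier results of these data known, and bands of fold and width after seeing the values. Python 3.11.15, pandas 2.3.3, NumPy 2.4.6 and SciPy 1.17.1 were used. The merging was tested on simulated peaks. The JMJD6 and knockout RNA files were not used, and input samples were not analysed here.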

Additional observations from a re-analysis of the deposited data

How the results depend on the processing

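The 16218 regions of both libraries became 14112 with a −log10 q-value of at least 10, 15272 with a fold of at least 5, 14870 with peaks at most 1 kb apart merged and 15526 when at least 50% of each peak had to be in common, all within 1.5 times. With the q-value limit, the fold limit and the merging, in this order, the median width was 1971, 1885 and 1996 bp, the median fold 66.1, 62.5 and 63.4, r of the log2 folds 0.921, 0.944 and 0.948, the median gap 63.9, 59.1 and 64.3 kb, chromosome 19 had 17.3, 18.5 and 17.4 regions per Mb, and summits were 31, 32 and 33 bp apart. The 2889 regions of 1 library became 984 with the q-value limit, 2122 with the fold limit and 1337 with the merging. Regions with 1 peak of each library gave an r of 0.953 and 33 bp. The mean fold of a region's peaks gave a median of 56.9, the span between the first and last region of each arm gave 20.9 regions per Mb on chromosome 19, and genes with at least 5 TPM gave 1.57 regions per expressed gene. Peaks of a single library gave a median width from 1507 to 1510 bp, a fold from 46.0 to 48.9, a gap from 42.4 to 43.2 kb, from 21.6 to 21.7 per Mb on chromosome 19, and from 1.49 to 1.50 per expressed gene. By construction these hold the low peaks of 1 library. Strong regions alone, chosen after seeing the data like the counts of regions of 1 library above, gave 2244 bp, an r of 0.610, 27 bp, 88.7 kb, 12.3 per Mb and 0.817 per expressed gene. In all 6 of these sets of regions (both limits, the merging, each library alone and strong regions) chromosome 19 was the densest and chromosome 13 the sparsest over whole lengths, 6.83 to 7.56-fold apart, and regions per expressed gene kept within a 1.21 to 1.32-fold range, 1.34-fold with genes of at least 5 TPM. Chromosome 22 was no longer among the 3 densest with the q-value limit and among strong regions, where chromosome 16 took its place. No paired analysis was possible because the 2 H3K4me3 libraries form 1 group with no second group to pair with. Read depth is unknown, so how many more weak regions deeper libraries would share could not be estimated.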
